A study of Mus musculus with 10 samples.

Results

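Protein tyrosine phosphatases are enzymes that remove phosphate from tyrosine residues and so oppose the tyrosine kinases. The genes described here are the mouse protein-coding genes whose symbol is Ptpn followed by a number (cytoplasmic, or non-receptor, enzymes) or Ptpr followed by a letter (receptor-like enzymes that span the membrane). The gene table of the GRCm38 build gave 37 such genes, 20 of receptor type and 17 of non-receptor type. Of 77076 regions in the deposited count table, 308 belonged to them: 234 overlapped the span of a member gene, and 74 overlapped no protein-coding span and had a member as the nearest one within 100 kb. The regions lay at 33 genes, since Ptpn20, Ptprd, Ptprq and Ptprz1 had none. A region's gene is a matter of position only.

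Accessibility was measured by ATAC-seq, in which a transposase cuts and tags open DNA, so that a region's read count follows how open it is. The cells were regulatory T cells (Treg cells), which restrain immune responses, sorted from the spleen and lymph nodes. The animals were mixed bone marrow chimeras, in which marrow from more than one source forms the blood. The 4 groups were effector Treg cells deficient in Fntb (FntbKO eTreg, 2 libraries), wild-type effector Treg cells (WT eTreg, 3 libraries), Fntb-deficient cTreg cells (FntbKO cTreg, 2 libraries) and wild-type cTreg cells (WT cTreg, 3 libraries). In the field's usage cTreg are central, or resting, Treg cells and eTreg are their activated effector counterpart. The product of Fntb is the β subunit of farnesyltransferase, an enzyme that adds a lipid anchor (farnesyl) to RAS and other proteins. The labels name no Cre line, no deleted exon, no age and no other allele or agent, and they do not say whether libraries of a group came from separate animals. P-values therefore measure only the spread between these libraries, which may be technical.

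In T cells the first signal from the antigen receptor is the phosphorylation of tyrosines by kinases such as Lck and Fyn, and phosphatases set its strength in both directions. CD45, the product of Ptprc, keeps Lck ready by removing an inhibitory phosphate, whereas the products of Ptpn6 (SHP-1), Ptpn22 and Ptpn2 restrain receptor or cytokine signals. Ptpn11 encodes SHP-2, which supports RAS signalling and binds inhibitory receptors such as PD-1, and Ptpn7, Ptpn5 and Ptprr encode phosphatases that bind ERK and p38 kinases.

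Promoter sequences are shown for 4 members that the results turn on or that define the family in T cells: Ptpn13, whose promoter region was the only member promoter called in any comparison, Ptpn3 and Ptprm, which hold the regions with the smallest p between WT subsets and between genotypes, and Ptprc. Each runs from 250 bases before to 50 bases after a RefSeq start on GRCm38.p6. Capitals mark matches to 1 of 6 short motifs searched on both strands.
Ptpn13, plus strand, chr5:103424942-103425241: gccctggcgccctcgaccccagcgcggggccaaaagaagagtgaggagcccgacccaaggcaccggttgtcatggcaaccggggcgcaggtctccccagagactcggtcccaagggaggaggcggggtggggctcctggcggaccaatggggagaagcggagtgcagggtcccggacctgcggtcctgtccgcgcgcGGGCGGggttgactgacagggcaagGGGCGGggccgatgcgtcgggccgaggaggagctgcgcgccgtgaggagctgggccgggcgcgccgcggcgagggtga
Ptpn3, minus strand, chr4:57301788-57302087: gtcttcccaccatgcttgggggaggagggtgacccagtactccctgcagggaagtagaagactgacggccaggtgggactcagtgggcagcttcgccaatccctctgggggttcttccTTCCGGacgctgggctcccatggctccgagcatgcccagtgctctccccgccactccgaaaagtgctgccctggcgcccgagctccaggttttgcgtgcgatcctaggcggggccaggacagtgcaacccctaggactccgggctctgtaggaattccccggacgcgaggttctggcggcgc
Ptprm, minus strand, chr17:67354410-67354709: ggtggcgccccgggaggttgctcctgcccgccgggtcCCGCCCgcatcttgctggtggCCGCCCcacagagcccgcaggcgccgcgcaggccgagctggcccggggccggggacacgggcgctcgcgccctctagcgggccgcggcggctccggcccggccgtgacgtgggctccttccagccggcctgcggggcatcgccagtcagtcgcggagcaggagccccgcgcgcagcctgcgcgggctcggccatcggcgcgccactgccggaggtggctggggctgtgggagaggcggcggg
Ptprc, minus strand, chr1:138175256-138175555: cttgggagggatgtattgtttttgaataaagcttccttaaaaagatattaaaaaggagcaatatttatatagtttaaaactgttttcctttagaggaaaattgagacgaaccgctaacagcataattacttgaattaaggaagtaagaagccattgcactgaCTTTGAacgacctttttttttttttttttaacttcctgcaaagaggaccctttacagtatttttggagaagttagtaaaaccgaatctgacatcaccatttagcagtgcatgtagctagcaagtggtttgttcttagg
The promoters of Ptpn13 and Ptprm were rich in G and C (74.0% and 80.7%, with 33 and 43 CpG dinucleotides), that of Ptpn3 had 65.3% and 18, and that of Ptprc had 33.7% and 4. The capitals are 2 copies each of the SP or KLF motif GGGCGG in Ptpn13 and Ptprm (read on the opposite strand in Ptprm), 1 ETS motif CCGGAA in Ptpn3 (opposite strand) and 1 TCF or LEF motif CTTTGA in Ptprc. RefSeq windows were found for 32 of the 37 members, 46 windows in all. Their median GC content was 63.2%, against 52.7% over all 32851 windows. GGGCGG stood in 25 of the 46 member windows (54.3%), against 35.7% of all windows. CCGGAA stood in 6 (13.0%, against 14.9%), the RUNX motif TGTGGT in 6 (13.0%, against 16.8%), CTTTGA in 2 (4.35%, against 16.0%), the AP-1 motif TGANTCA in 2 (4.35%, against 7.81%) and the CRE motif TGACGTCA in 3 (6.52%, against 1.79%). A match is a string of letters, not a shown binding site.

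Libraries held between 5058328 and 15328775 counts, of which 0.290% to 0.334% fell in member regions. Between 66.73% and 79.24% of region counts were even numbers, as when both ends of a fragment are counted. In a principal component analysis of log2(CPM + 1), where CPM are counts scaled to a common library size by TMM, the first component held 34.5% of the variance. It placed FntbKO eTreg libraries at -0.8 and 22.4, WT eTreg libraries at 49.9 to 96.9, FntbKO cTreg libraries at -114.4 and -54.5, and WT cTreg libraries at -42.1 to 10.0. WT cTreg replicate 2 (10.0) thus lay among the eTreg libraries and FntbKO cTreg replicate 1 (-114.4) lay apart from the rest, and results that are lost without both are named as such below. The region at the start of Fntb, chr12:76837192-76837915, had 9.55 ± 2.93 CPM in FntbKO eTreg cells (SD, n = 2) and 30.0 ± 0.492 CPM in WT eTreg cells (n = 3), and 12.1 ± 1.40 CPM in FntbKO cTreg cells (n = 2) and 33.1 ± 3.81 CPM in WT cTreg cells (n = 3). The log2 fold changes of -1.71 (SE 0.19, edgeR adjusted p = 4.46e-05) and -1.46 (SE 0.18, edgeR adjusted p = 6.34e-05) go with the genotype labels. Foxp3, which encodes the lineage factor of Treg cells, had summed CPM of 39.4, 32.5, 37.7 and 35.0 on average in FntbKO eTreg, WT eTreg, FntbKO cTreg and WT cTreg cells. Of the B cell markers followed, Ms4a1 and Cd79b had no region, of 6 myeloid markers Csf1r, Lyz2 and Fcgr3 had none, and of 5 dendritic cell markers Xcr1 had none. The summed CPM of the B cell markers with a region was 54.9 to 63.1 in FntbKO eTreg, 67.3 to 75.0 in WT eTreg, 49.0 to 51.0 in FntbKO cTreg and 61.7 to 73.1 in WT cTreg libraries. That of the myeloid markers was 306 to 321 CPM in FntbKO eTreg, 316 to 348 in WT eTreg, 259 to 280 in FntbKO cTreg and 278 to 327 in WT cTreg libraries. That of the dendritic markers was 253 to 265 CPM in FntbKO eTreg, 268 to 302 in WT eTreg, 222 to 251 in FntbKO cTreg and 245 to 304 in WT cTreg libraries. All 6 CD8 T or NK markers had a region, with 264 to 269 CPM in FntbKO eTreg, 278 to 303 in WT eTreg, 296 to 301 in FntbKO cTreg and 309 to 311 in WT cTreg libraries. Few genes held most of these last 3 sums. By group mean, Cebpb had 196 to 230 CPM of the myeloid sum and Zbtb46 168 to 216 CPM of the dendritic sum. Klrb1c had 130 to 142 CPM and Eomes 82.6 to 114 CPM of the CD8 T or NK sum. The part of other cell types in the results below was not tested.

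Accessibility per kb of region differed widely between members. Summed over all regions of a gene and divided by their total length, it averaged 46.3 CPM per kb at Ptpn4, 40.9 at Ptpn7, 35.0 at Ptpn12, 34.3 at Ptpn22 and 34.1 at Ptpn2 over the 10 libraries, and 28 at Ptprc. The lowest members were Ptprr (5.56 CPM per kb), Ptprm (6.78) and Ptpn9 (7.02). Ptpn4, which encodes an enzyme with FERM and PDZ domains, had 43.9 ± 2.74 CPM per kb in FntbKO eTreg, 45.5 ± 2.58 in WT eTreg, 46.3 ± 3.12 in FntbKO cTreg and 48.7 ± 2.91 in WT cTreg cells (SD). Ptpn7 had 41.0 ± 4.82 CPM per kb in FntbKO eTreg, 41.6 ± 1.23 in WT eTreg, 39.8 ± 0.538 in FntbKO cTreg and 40.8 ± 3.49 in WT cTreg cells. Neither gene passed a test on summed counts in any comparison. Ptprc had the most regions (31), followed by Ptpn1 (24), Ptpn13 (22), Ptpre and Ptprn2 (16 each). The filter on low counts kept 300 of the 308 member regions for testing. The 8 left out held 12 to 89 counts over all libraries. The outermost member region kept by the 100 kb window lay 99.2 kb from Ptpn1 (14.6 CPM on average), and the first beyond it lay 100.2 kb from Ptprn2 (2.72 CPM).

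The comparison of eTreg with cTreg cells in WT asks where chromatin at these genes differs between the subsets when Fntb is present. In WT, 18 member regions were more open in eTreg cells and 4 were less open. The more open ones lay at genes of several kinds, including the FERM enzyme Ptpn3, the kinase-binding Ptpn5, the SH2 enzyme Ptpn11, the scaffold-like Ptpn13 and the receptors Ptprj and Ptprn2, whereas the less open ones lay only at Ptpn14 and Ptpn12 in this test. The 22 calls (edgeR quasi-likelihood test, Benjamini-Hochberg adjusted p under 0.05 over 76216 regions) were 7.33% of the 300 tested member regions, where 3.44% of all tested regions were called, 1.83% as more open and 1.61% as less open. The median log2 fold change over the tested member regions was 0.07 (all tested regions -0.01), and 56.0% of them lay above 0 (48.9% of all). By gene, 11 members had more open regions only, 2 had less open regions only and 20 had no called region. Of these calls, those at Ptpn3, Ptpn12, 2 of Ptpn5 and 1 of Ptpn14 held with each library left out in turn. Each of the others was lost without at least 1 WT library, and 6 to 8 regions were called without WT cTreg replicate 1 or 3 or WT eTreg replicate 1 or 3. In bulk cells, a shift in the share of cells with an open site and a shift in how open it is per cell cannot be told apart.

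**Figure D1:**
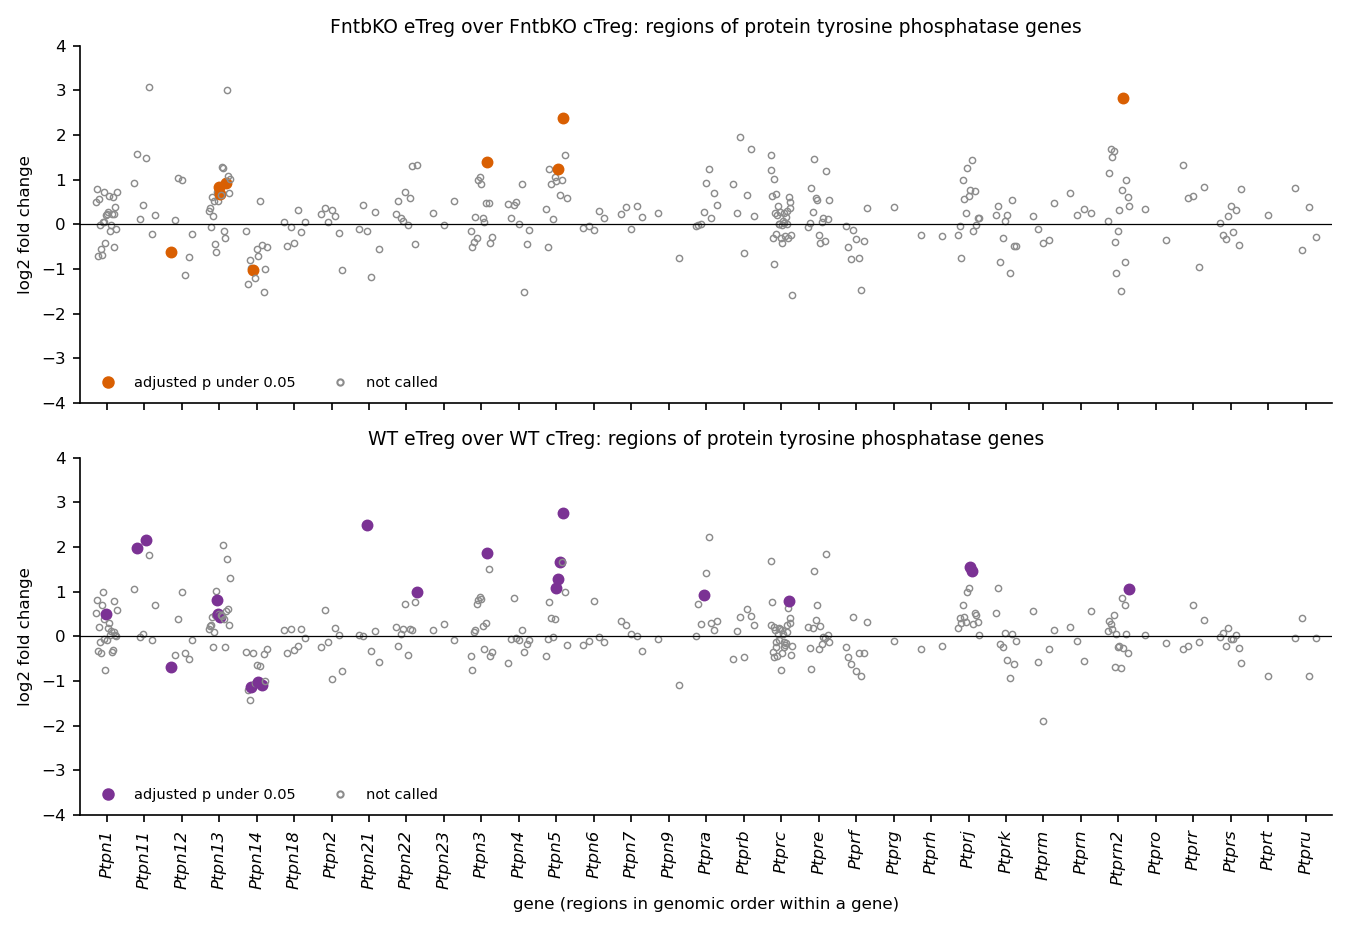
Log2 fold change of eTreg over cTreg (y axis) for each of the 300 tested regions of the 33 member genes (x axis), in FntbKO (top, 9 filled points) and in WT (bottom, 22 filled points); filled points passed an adjusted p under 0.05. In WT the filled points lie above 0 at Ptpn3, Ptpn5, Ptpn11, Ptpn13 and Ptprj among others, and below 0 at Ptpn14 and Ptpn12.

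Ptpn3 encodes a cytoplasmic phosphatase with a FERM domain, which binds membrane proteins, and a PDZ domain. Its region chr4:57306139-57306641, at -4.6 kb from the RefSeq start whose promoter is shown above, had 10.7, 13.1 and 11.7 CPM in WT eTreg libraries and 2.79, 4.65 and 2.54 CPM in WT cTreg libraries. All WT eTreg values stood above all WT cTreg values. The log2 fold change was 1.87 (SE 0.28, adjusted p = 0.000772), the smallest adjusted p of any member in this comparison. Summed over its 15 regions, Ptpn3 had 98.8 ± 5.45 CPM in WT eTreg and 81.0 ± 5.25 CPM in WT cTreg cells (SD, n = 3 each), a log2 fold change of 0.28 (SE 0.08, adjusted p = 0.0496 over 15895 genes). Of the 15 regions 10 had a fold change above 0. Leaving out any of 8 libraries ended the summed call, with adjusted p up to 0.252 (all 6 WT libraries and both FntbKO eTreg libraries).

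Ptpn5 encodes STEP, a phosphatase best known from neurons, where it acts on ERK and on Src family kinases. It had 4 more open regions in WT eTreg cells, the most of any member in this comparison. The region chr7:47139913-47140300, 5.9 kb outside the gene span, had 7.83, 4.38 and 6.11 CPM in WT eTreg libraries and 0.559, 1.03 and 1.06 CPM in WT cTreg libraries. The WT eTreg values were thus several times the WT cTreg values in each library, with a log2 fold change of 2.76 (SE 0.44, adjusted p = 0.00144). The 3 WT cTreg libraries together held 20 counts in it. Inside the gene, chr7:47111630-47112022 had 12.2, 9.66 and 11 CPM in WT eTreg and 4.75, 3.10 and 5.28 CPM in WT cTreg libraries (log2 fold change 1.29, SE 0.25, adjusted p = 0.00579). Its neighbour chr7:47113426-47113702 averaged 5.09 ± 1.74 CPM in WT eTreg and 1.59 ± 0.567 CPM in WT cTreg cells (log2 fold change 1.67, SE 0.41, adjusted p = 0.0235). Summed over 13 regions, Ptpn5 had 74.4, 64.5 and 73.2 CPM in WT eTreg and 47.8, 46.1 and 38.4 CPM in WT cTreg libraries. The groups did not overlap, and the log2 fold change was 0.68 (SE 0.12, adjusted p = 0.00390). Neither other member of the kinase-binding group had a called region: over the 3 genes, 4 of 23 tested regions were called, all at Ptpn5.

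Ptpn14 encodes a FERM phosphatase known for binding the transcriptional coactivator YAP. All 13 of its tested regions had a log2 fold change below 0 in WT, from -1.43 to -0.29, and 3 of them passed as less open in eTreg cells. The region chr1:189830428-189831443 had 6.26, 9.36 and 5.43 CPM in WT eTreg and 14.2, 17.9 and 13.8 CPM in WT cTreg libraries, a log2 fold change of -1.09 (SE 0.21, adjusted p = 0.00520). The region chr1:189795575-189796189 averaged 5.53 ± 1.60 CPM in WT eTreg and 12.6 ± 4.29 CPM in WT cTreg cells (log2 fold change -1.14, SE 0.26, adjusted p = 0.0164), and chr1:189819195-189819538 averaged 3.06 ± 0.0720 CPM in WT eTreg and 6.25 ± 1.80 CPM in WT cTreg cells (log2 fold change -1.03, SE 0.29, adjusted p = 0.0450). Without both WT cTreg replicate 2 and FntbKO cTreg replicate 1, the second and the third of these calls were lost, at adjusted p of 0.0517 and 0.0786. Summed counts gave 63.4, 72.8 and 59.2 CPM in WT eTreg and 107, 103 and 105 CPM in WT cTreg libraries. The log2 fold change of -0.68 (SE 0.08, adjusted p = 0.000245) was the smallest adjusted p of any member on summed counts here. Ptpn21, the other member of its subfamily, had 1 call in the opposite direction. Ptpn12, which encodes PTP-PEST, a regulator of adhesion and of receptor signalling, had the fourth less open region, chr5:21002698-21003172, with 28.7, 29.3 and 24.8 CPM in WT eTreg and 48.0, 43.4 and 42.6 CPM in WT cTreg libraries. It was the region with the smallest adjusted p in this direction (log2 fold change -0.69, SE 0.12, adjusted p = 0.00242).

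Ptpn13 encodes a large phosphatase with a FERM domain and several PDZ domains, known in human cells for binding the death receptor Fas. Of its 22 tested regions, 20 had a fold change above 0 in WT and 3 were called as more open. The promoter region chr5:103424840-103425455, which contains the whole Ptpn13 window shown above, had 60.7, 52.0 and 65.7 CPM in WT eTreg and 37.7, 45.4 and 43.3 CPM in WT cTreg libraries. The groups did not overlap, at a log2 fold change of 0.49 (SE 0.11, adjusted p = 0.0142). A region 20.2 kb outside the span, chr5:103404378-103404996, averaged 20.2 ± 4.59 CPM in WT eTreg and 11.4 ± 1.69 CPM in WT cTreg cells (log2 fold change 0.81, SE 0.19, adjusted p = 0.0170). Within the gene, chr5:103442126-103442549 averaged 51.1 ± 1.12 CPM in WT eTreg and 38.0 ± 6.41 CPM in WT cTreg cells (log2 fold change 0.43, SE 0.12, adjusted p = 0.0358). The summed level was 280, 280 and 305 CPM in WT eTreg and 179, 252 and 241 CPM in WT cTreg libraries, with the lowest value in WT cTreg replicate 1. The summed log2 fold change was 0.37 (SE 0.09, adjusted p = 0.0490), and leaving out any of 9 libraries ended the call (all but WT cTreg replicate 2), with adjusted p up to 0.229, and under 4 other settings.

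Ptpn11, which encodes SHP-2, had 2 more open regions in WT eTreg cells, both of low counts. The region chr5:121179037-121179489, inside the gene, had 6.75, 5.78 and 9.67 CPM in WT eTreg and 1.40, 2.41 and 1.27 CPM in WT cTreg libraries (log2 fold change 2.15, SE 0.41, adjusted p = 0.00440). The region chr5:121100688-121101347, 29.2 kb outside the span, had 4.34, 6.18 and 6.96 CPM in WT eTreg and 1.54, 2.75 and 0.423 CPM in WT cTreg libraries (log2 fold change 1.97, SE 0.45, adjusted p = 0.0150). Ptpn1, which encodes PTP1B, an antagonist of insulin and cytokine receptor signals, had 1: chr2:167924733-167925668 averaged 45.7 ± 4.78 CPM in WT eTreg and 32.4 ± 2.35 CPM in WT cTreg cells (log2 fold change 0.49, SE 0.12, adjusted p = 0.0250).

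Among the receptors, Ptprj encodes CD148, which acts on Src family kinases. All 15 of its tested regions had a fold change above 0 in WT. Its region chr2:90542670-90543079 had 10.7, 12.4 and 8.48 CPM in WT eTreg and 1.68, 6.54 and 2.96 CPM in WT cTreg libraries (log2 fold change 1.55, SE 0.36, adjusted p = 0.0191). The region chr2:90547190-90547694 had 11, 15.7 and 9.33 CPM in WT eTreg and 1.95, 6.19 and 5.18 CPM in WT cTreg libraries (log2 fold change 1.45, SE 0.35, adjusted p = 0.0257). In both regions WT cTreg replicate 2 was the highest of its group, yet below every WT eTreg library. Summed counts averaged 178 ± 7.89 CPM in WT eTreg and 135 ± 13.5 CPM in WT cTreg cells (log2 fold change 0.40, SE 0.08, adjusted p = 0.0123), a call that was lost without WT cTreg replicate 1 or 3 or WT eTreg replicate 3 (adjusted p up to 0.0701). Ptprn2, whose product is a receptor-like protein of secretory vesicles, had a called region 70.3 kb outside its span, chr12:117348438-117349123, with 15.7, 12 and 14.9 CPM in WT eTreg and 6.42, 8.95 and 5.28 CPM in WT cTreg libraries (log2 fold change 1.06, SE 0.23, adjusted p = 0.0125). The remaining 5 more open regions, named after their values were seen, lay at Ptpn5, Ptpn22, Ptpra, Ptprc and Ptpn21, with log2 fold changes of 0.78 to 2.49 and adjusted p of 0.0331 to 0.0453. All but that of Ptpn5 were lost without both WT cTreg replicate 2 and FntbKO cTreg replicate 1, at adjusted p of 0.0590 to 0.0739. That of Ptpn22 was the only call of the 22 whose groups overlapped, since WT eTreg replicate 2 had 11 CPM and WT cTreg replicate 1 had 11.9 CPM. The call at Ptprc was a region of 13.8 ± 2.84 CPM in WT eTreg and 7.98 ± 0.756 CPM in WT cTreg cells, 10.2 kb outside the gene.

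**Figure D2:**
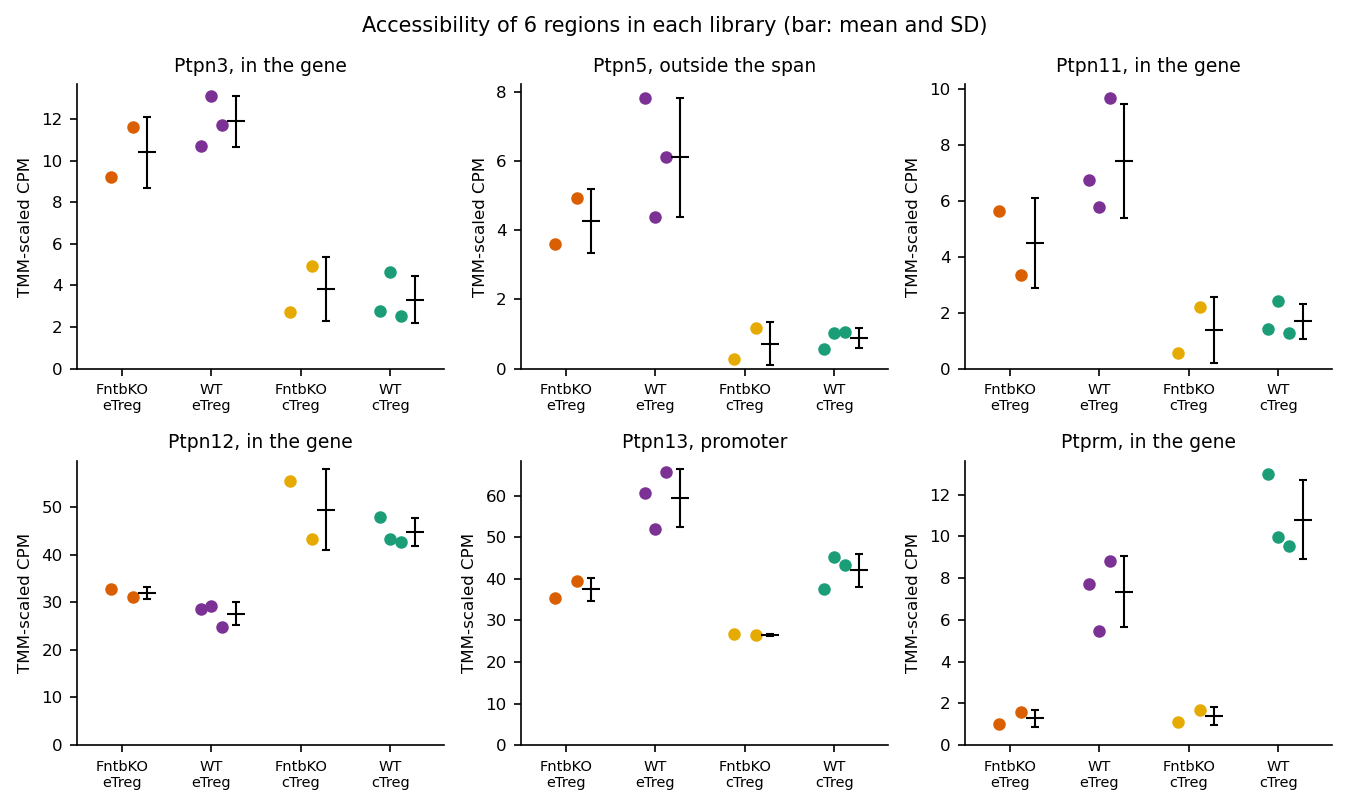
TMM-scaled CPM (y axis, from 0) in each of the 10 libraries (points) by group (x axis) for 6 regions, with the mean and SD of the group beside the points. The eTreg libraries of both genotypes lie above their cTreg libraries at Ptpn3, Ptpn5 and Ptpn11 and below them at Ptpn12, and the FntbKO libraries lie below the WT libraries of the same subset at the Ptpn13 promoter and at Ptprm.

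The promoters of the best known T cell members did not pass the test between subsets or genotypes. The region at the Ptprc promoter averaged 21.3 ± 3.01 CPM in FntbKO eTreg, 20.9 ± 2.42 in WT eTreg, 20.8 ± 3.17 in FntbKO cTreg and 19.4 ± 1.88 in WT cTreg cells. That of Ptpn22 averaged 63.1 ± 8.52 CPM in FntbKO eTreg, 58.0 ± 5.20 in WT eTreg, 56.7 ± 0.122 in FntbKO cTreg and 56.1 ± 2.45 in WT cTreg cells. At Ptpn7 the promoter region averaged 44.1 ± 11.9 CPM in FntbKO eTreg, 50.0 ± 2.71 in WT eTreg, 48.3 ± 1.30 in FntbKO cTreg and 48.4 ± 3.85 in WT cTreg cells. The spread of the 2 FntbKO eTreg libraries at Ptpn7 was wider than the difference between any 2 group means. Ptpn1 had 48.3 ± 1.15 CPM in FntbKO eTreg, 38.2 ± 1.91 in WT eTreg, 41.8 ± 2.42 in FntbKO cTreg and 40.3 ± 0.444 in WT cTreg cells at its promoter, where the eTreg genotype difference had the lowest adjusted p of these 8 genes (log2 fold change 0.34, adjusted p = 0.204). The region of highest mean CPM at Ptpn2, for which no promoter window was at hand, averaged 95.4 ± 7.87 CPM in FntbKO eTreg, 97.1 ± 5.19 in WT eTreg, 110 ± 9.31 in FntbKO cTreg and 94.9 ± 5.12 in WT cTreg cells. The promoter regions of Ptpn6, Ptpn11 and Ptprj averaged 10.2 to 12 CPM, 11.3 to 14.1 CPM and 22.0 to 24.8 CPM over the 4 groups, and the Ptprj one also overlaps the span of Gm46752. None of these 8 regions was called in any of the 5 tests, and their log2 fold changes in the 4 pairwise comparisons lay between -0.22 and 0.34. In all, 27 tested member regions at 23 genes lay at a RefSeq promoter, with mean levels of 1.98 to 158 CPM, and the one at Ptpn13 was the only one called in any comparison. Of the other 273 tested regions, 21 (7.69%) were called in WT, against 1 of the 27 (3.7%) and 3.44% of all tested regions. The 273 include every tested region of Ptpn2, Ptpn12 and Ptprb, for which no promoter window was at hand.

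The same comparison in FntbKO cells asks whether the subsets also differ without Fntb. There 7 member regions were more open and 2 less open in FntbKO eTreg than in FntbKO cTreg cells, at Ptpn13 (3), Ptpn5 (2), Ptpn3, Ptprn2, Ptpn12 and Ptpn14. The 9 calls were 3.00% of the tested member regions, where 1.36% of all tested regions were called (0.966% more open, 0.390% less open). The median log2 fold change was 0.19 (all regions -0.00), and 62.3% of the member regions lay above 0 (49.6% of all). The median was 0.10 without FntbKO eTreg replicate 2 and 0.13 without both WT cTreg replicate 2 and FntbKO cTreg replicate 1. All 9 calls were lost, leaving 0, without FntbKO cTreg replicate 1, without FntbKO eTreg replicate 2, and without both WT cTreg replicate 2 and FntbKO cTreg replicate 1.

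At Ptpn13, the region chr5:103442126-103442549 had 46.9 and 45.3 CPM in FntbKO eTreg and 27.2 and 30.3 CPM in FntbKO cTreg libraries (log2 fold change 0.67, SE 0.14, adjusted p = 0.0170). The region chr5:103439059-103439574 had 27.2 and 24.9 CPM in FntbKO eTreg and 16.4 and 13.2 CPM in FntbKO cTreg libraries (log2 fold change 0.83, SE 0.18, adjusted p = 0.0224), and chr5:103519055-103519618 had 23.2 and 23.1 CPM in FntbKO eTreg and 10.4 and 13.5 CPM in FntbKO cTreg libraries (log2 fold change 0.93, SE 0.23, adjusted p = 0.0357). All 3 lie inside the gene, downstream of the promoter. The promoter region itself had a log2 fold change of 0.51 (SE 0.14, adjusted p = 0.0653) in FntbKO and did not pass. At Ptpn5, chr7:47139913-47140300 had 3.61 and 4.92 CPM in FntbKO eTreg and 0.274 and 1.17 CPM in FntbKO cTreg libraries (log2 fold change 2.38, SE 0.52, adjusted p = 0.0216), and chr7:47111630-47112022 averaged 8.97 ± 1.64 CPM in FntbKO eTreg and 3.82 ± 0.374 CPM in FntbKO cTreg cells (log2 fold change 1.23, SE 0.31, adjusted p = 0.0405).

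The Ptpn3 region chr4:57306139-57306641 had 9.22 and 11.6 CPM in FntbKO eTreg and 2.74 and 4.93 CPM in FntbKO cTreg libraries, a log2 fold change of 1.40 (SE 0.32, adjusted p = 0.0267). The Ptpn12 region was again lower, at 32.9 and 31.1 CPM in FntbKO eTreg and 55.5 and 43.4 CPM in FntbKO cTreg libraries (log2 fold change -0.62, SE 0.14, adjusted p = 0.0281). At Ptpn14 the called region was chr1:189798967-189799352, with 14.0 and 8.66 CPM in FntbKO eTreg and 27.6 and 17.4 CPM in FntbKO cTreg libraries (log2 fold change -1.02, SE 0.24, adjusted p = 0.0351), and 12 of 13 tested regions had a fold change below 0. The Ptprn2 region chr12:116772045-116772357 had 1.60 and 3.25 CPM in FntbKO eTreg and 0.274 and 0.389 CPM in FntbKO cTreg libraries, which held 8 counts together (log2 fold change 2.82, SE 0.73, adjusted p = 0.0494). On summed counts 2 members passed, 1 more open and 1 less open, where 1.86% of all genes did (1.11% more open, 0.749% less open). The median over the 33 genes was 0.07 (all genes 0.00), with 22 above 0. Ptpn5 had 56.3 and 63.1 CPM in FntbKO eTreg and 25.8 and 36.6 CPM in FntbKO cTreg libraries (log2 fold change 0.91, SE 0.14, adjusted p = 0.00464). Ptpn14 had 85.9 and 80.1 CPM in FntbKO eTreg and 135 and 124 CPM in FntbKO cTreg libraries (log2 fold change -0.65, SE 0.10, adjusted p = 0.00464). Both summed calls were lost without FntbKO cTreg replicate 1 or FntbKO eTreg replicate 2, with adjusted p up to 0.107 for Ptpn14 and 0.126 for Ptpn5.

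**Figure D3:**
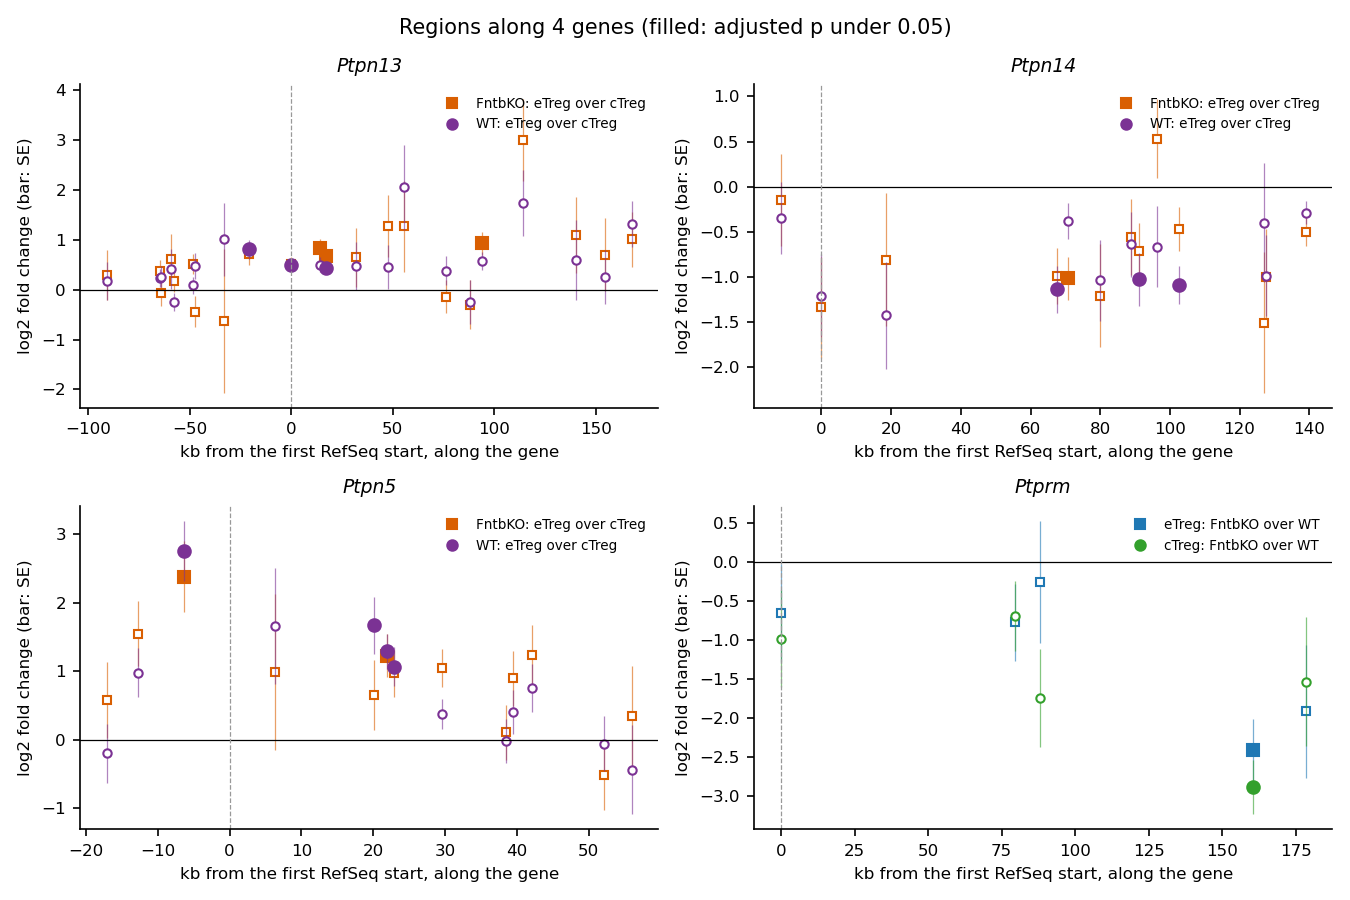
Log2 fold change with its SE (y axis) of each tested region against its distance in kb from the first RefSeq start (x axis, along the gene) at Ptpn13, Ptpn14, Ptpn5 (eTreg over cTreg in FntbKO, squares, and WT, circles) and Ptprm (FntbKO over WT in eTreg, squares, and cTreg, circles); filled symbols passed an adjusted p under 0.05. Values lie mostly above 0 along Ptpn13 and Ptpn5, below 0 along Ptpn14 apart from 1 FntbKO value, and below 0 at every tested Ptprm region.

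Between the subset comparisons, which share no library, 5 regions were called in both: those of Ptpn3, Ptpn12, Ptpn13 (chr5:103442126-103442549) and 2 of Ptpn5. They were 55.6% of the 9 calls in FntbKO and 22.7% of the 22 calls in WT. Over all regions, 38.8% of the calls in FntbKO and 15.3% of those in WT were called in both. Of the 9 regions called in FntbKO, 8 had the same sign in WT, and of the 22 called in WT, 21 had the same sign in FntbKO and 15 an unadjusted p under 0.05 there. Of all regions called in FntbKO 98.3% had the same sign in WT. Of all called in WT 95.4% had the same sign in FntbKO and 57.7% an unadjusted edgeR p under 0.05 there. The difference between the subset effects was tested as the interaction of genotype and subset. No member region passed (0 of 300, where 0.00% of all regions passed), none passed with DESeq2 or with limma on loess-scaled values, and 6 (2.00%) had an unadjusted p under 0.05 in edgeR, where 4.07% of all regions did. The smallest p belonged to the Ptprn2 region chr12:116772045-116772357 (interaction 3.08 on the log2 scale, SE 0.89, edgeR unadjusted p = 0.00182, adjusted p = 1.0), which had 3.01, 1.59 and 1.36 CPM in WT eTreg and 0.838, 3.10 and 3.27 CPM in WT cTreg libraries. A Ptprk region at chr10:28519852-28520227 followed (interaction 0.71, SE 0.29, edgeR unadjusted p = 0.0210, adjusted p = 1.0), and then the called Ptpn21 region chr12:98686570-98686825 (-2.64, SE 1.14, edgeR unadjusted p = 0.0281, adjusted p = 1.0). On summed counts no member passed either, and none had an unadjusted p under 0.05, the smallest being 0.0580 at Ptprn.

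The comparison of FntbKO with WT within a subset asks what the loss of Fntb does to these regions. In cTreg cells 3 member regions were less open in FntbKO and 0 more open, at Ptprm, Ptpn13 and Ptprb. They were 1.0% of the tested member regions, where 0.568% of all regions were called (0.190% more open, 0.378% less open), so 3 calls stand close to the background. In eTreg cells 2 member regions were less open in FntbKO, at Ptprm and Ptpn13, and 1 was more open, at Ptpn14, again 1.0%, where 0.350% of all regions were called (0.181% more open, 0.169% less open). The median log2 fold change over member regions was -0.14 in each subset (all regions -0.00 in eTreg and -0.01 in cTreg cells), with 38.3% of member regions above 0 in eTreg and 34.7% in cTreg cells. On summed counts the median over the 33 genes was only -0.02 in eTreg cells (all genes 0.01), with 14 above 0. It was -0.11 in cTreg cells (all genes -0.00), with 7 above 0. Among the subset markers, the eTreg markers had a median log2 fold change of -0.15 in eTreg and -0.16 in cTreg cells (38.6% and 35.1% of 114 regions above 0), and the cTreg markers 0.23 in eTreg and 0.12 in cTreg cells (64.9% and 64.0% of 228 above 0). Their part in the member medians was not tested. In cTreg cells the median over member regions moved to -0.10 without both WT cTreg replicate 2 and FntbKO cTreg replicate 1, and to -0.26 without FntbKO cTreg replicate 2.

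Ptprm encodes a receptor that mediates adhesion between cells by binding its own kind. Its region chr17:67193881-67194472, inside the gene and 160.3 kb along it from the promoter shown above, had 1.0 and 1.57 CPM in FntbKO eTreg and 7.71, 5.48 and 8.82 CPM in WT eTreg libraries. In cTreg cells it had 1.09 and 1.69 CPM in FntbKO and 13.0, 9.98 and 9.51 CPM in WT libraries. Every FntbKO library lay well below every WT library of its subset, with log2 fold changes of -2.40 in eTreg (SE 0.39, adjusted p = 0.00370) and -2.88 in cTreg cells (SE 0.35, adjusted p = 8.3e-05). The counts behind these values were 21 in FntbKO eTreg and 171 in WT eTreg, and 34 in FntbKO cTreg and 241 in WT cTreg libraries. The interaction was 0.48 (SE 0.54, adjusted p = 1.0). All 5 tested Ptprm regions had a fold change below 0 in both subsets, but the promoter region had few counts and did not pass, at -0.65 (SE 0.63) in eTreg and -0.98 (SE 0.62) in cTreg cells. On summed counts Ptprm had 5.72 and 4.74 CPM in FntbKO eTreg and 17.4, 11.2 and 15.3 CPM in WT eTreg libraries, and 3.70 and 6.82 CPM in FntbKO cTreg and 19.1, 20.3 and 19.9 CPM in WT cTreg libraries. The summed log2 fold change was -1.50 in eTreg (SE 0.26, adjusted p = 0.00760) and -1.84 in cTreg cells (SE 0.25, adjusted p = 0.000366). In cTreg cells both calls held with each library left out in turn. In eTreg cells both were lost without FntbKO eTreg replicate 1 or replicate 2, with adjusted p up to 0.107 for the region and 0.224 for the sum. DESeq2 gave the eTreg sum no adjusted p (log2 fold change -1.51, unadjusted p = 2.65e-07), so that it is not among that tool's calls.

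The Ptpn13 promoter region was less open in FntbKO cells of both subsets. It had 35.5 and 39.5 CPM in FntbKO eTreg and 60.7, 52.0 and 65.7 CPM in WT eTreg libraries (log2 fold change -0.65, SE 0.13, adjusted p = 0.0181), and 26.7 and 26.4 CPM in FntbKO cTreg and 37.7, 45.4 and 43.3 CPM in WT cTreg libraries (log2 fold change -0.67, SE 0.13, adjusted p = 0.0121). FntbKO and WT libraries did not overlap in either subset. These WT libraries are the same that gave its subset difference, so the 2 results are not independent. The call was lost without either FntbKO cTreg library in cTreg cells, and without either FntbKO eTreg library or WT eTreg replicate 1 or 3 in eTreg cells, with adjusted p up to 0.173 and 0.281. Without both WT cTreg replicate 2 and FntbKO cTreg replicate 1 the adjusted p in cTreg cells was 0.234. Summed over all regions, Ptpn13 did not pass between genotypes, at -0.18 (SE 0.11, adjusted p = 0.454) in eTreg and -0.28 (SE 0.11, adjusted p = 0.180) in cTreg cells.

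The remaining genotype calls of single regions rested on few counts. Ptprb, which encodes the endothelial phosphatase VE-PTP, had a region 7.5 kb outside its span, chr10:116397039-116397332, with 0.274 and 1.04 CPM in FntbKO cTreg and 7.26, 3.44 and 2.54 CPM in WT cTreg libraries (log2 fold change -2.52, SE 0.56, adjusted p = 0.0338). Leaving out any of 6 libraries ended this call, with adjusted p up to 0.399, and it was also lost without both WT cTreg replicate 2 and FntbKO cTreg replicate 1 (adjusted p = 0.356). The Ptpn14 region chr1:189824441-189824834 had 4.81 and 9.74 CPM in FntbKO eTreg and 1.57, 2.39 and 0.679 CPM in WT eTreg libraries (log2 fold change 2.19, SE 0.44, adjusted p = 0.0233), lost without WT eTreg replicate 1 or 3 or FntbKO eTreg replicate 2, with adjusted p up to 0.352. On summed counts Ptprn2 passed in cTreg cells, with 28.4 and 38.3 CPM in FntbKO and 49.0, 61.6 and 52.9 CPM in WT libraries (log2 fold change -0.68, SE 0.13, adjusted p = 0.00864). All 16 of its tested regions had a fold change below 0 there, but the call was lost without FntbKO cTreg replicate 1 (adjusted p = 0.202) and without both that library and WT cTreg replicate 2 (adjusted p = 0.375). On summed counts 1 member passed in eTreg cells, where 0.736% of all genes did (0.384% more open, 0.352% less open in FntbKO), and 2 passed in cTreg cells, where 2.30% of all genes did (0.868% more open, 1.43% less open). Ptprn2 and Ptpn21 lie on chromosome 12, 39.6 Mb and 21.8 Mb from Fntb. Whether sequence carried along with the Fntb allele plays a part was not tested.

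**Figure D4:**
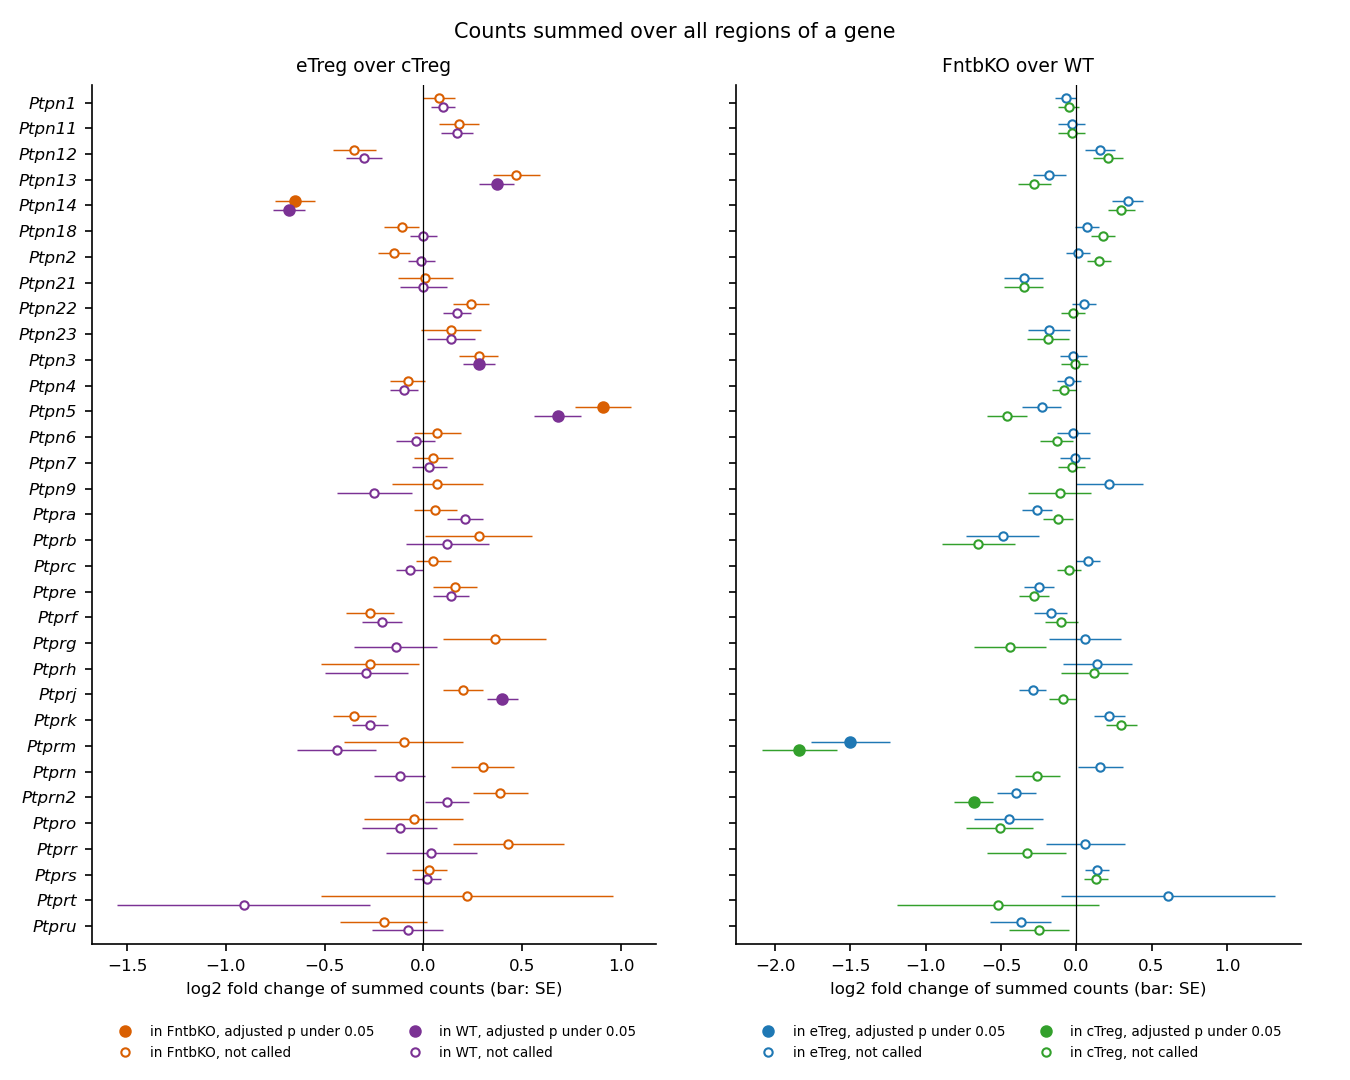
Log2 fold change of counts summed over all regions of a gene, with its SE (x axis), for the 33 member genes (y axis): eTreg over cTreg in FntbKO and WT on the left, FntbKO over WT in eTreg and cTreg on the right. Filled points passed an adjusted p under 0.05: on the left Ptpn5 and Ptpn14 in both genotypes and Ptprj, Ptpn13 and Ptpn3 in WT, on the right Ptprm in both subsets and Ptprn2 in cTreg.

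On summed counts, 5 members passed between the subsets in WT, 4 more open (Ptpn5, Ptprj, Ptpn13 and Ptpn3) and 1 less open (Ptpn14), where 3.17% of all genes passed (1.38% more open, 1.79% less open). The median over the 33 genes was -0.00 (all genes -0.00), with 16 above 0. By symbol, the non-receptor (Ptpn) genes had 156 tested regions. Of these, 6 were more open and 2 less open in eTreg cells in FntbKO, and 13 more open and 4 less open in WT. The receptor genes had 144, of which 1 was more open and 0 less open in FntbKO, and 5 more open and 0 less open in WT. Called regions were thus 5.13% of the non-receptor and 0.694% of the receptor regions in FntbKO, where 1.36% of all regions were called. In WT they were 10.9% and 3.47%, where 3.44% of all were called. The share of the Ptpr genes thus stood at the background in WT. This split follows the symbol only. Ptpn5 and Ptpn7 count as non-receptor, though they share the kinase-binding group with Ptprr. In WT, Ptpn5 had 4 called regions, Ptpn13 and Ptpn14 had 3 each, and Ptpn7 had 0. Of the 33 genes with a region, only 15 had a called region in any comparison. Those without one included the LAR receptors Ptprf and Ptprs (18 tested regions), and Ptpn23, Ptpn9 and Ptprg (3, 2 and 1). For the partners of these enzymes, a list of 41 genes for T cell kinases, adaptors and receptors was followed. It had 528 tested regions, of which 3 were more open and 3 less open in FntbKO eTreg than in FntbKO cTreg cells, and 7 more open and 14 less open in WT eTreg than in WT cTreg cells. These shares, 1.14% in FntbKO and 3.98% in WT, lie near the 1.36% and 3.44% of all regions. Its median log2 fold change was -0.05 in WT, where that of the phosphatases was 0.07. The kinase genes with calls in WT included Fyn, with 2 more open and 1 less open region. Between genotypes the list had 1 more open region in FntbKO eTreg cells, at Cblb, and 1 less open region in FntbKO cTreg cells, at Ctla4. Each was 0.189% of its regions, below the share of all regions called (0.350% in eTreg and 0.568% in cTreg cells). The cTreg markers had 1 more open and 5 less open of 228 regions in FntbKO eTreg cells (2.63%), and 2 more open and 24 less open in WT eTreg cells (11.4%). The eTreg markers had 7 more open and 0 less open of 114 in FntbKO eTreg cells (6.14%), and 9 more open and 1 less open in WT eTreg cells (8.77%).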

How the data were processed

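Chromatin accessibility was measured in 10 ATAC-seq libraries of 4 groups. The deposited table holds raw read counts per region, made by the authors and not normalized. Per the submitters' processing notes, the tools included MACS2 2.1.1, bedtools, SAMtools, Trimmomatic 0.36 and Picard 2.9.4, and the builds named are GRCm38 and mm10. The aligner, and any shift of reads for the transposase cut, are not given in the sources used here. Most counts were even, so mates of a pair may have been counted separately, and halved counts were tried. The table does not say whether coordinates start at 0 or 1; they are printed as deposited. All columns were matched to samples.

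Regions took the protein-coding gene of GRCm38.p6 that they overlapped, or else the nearest within 100 kb. The members and lists were chosen with earlier results of these data known. Counts were fitted over all regions, and over counts summed per gene, with edgeR 4.0.16 in R 4.3.3 (filterByExpr, TMM, robust quasi-likelihood test, 1 mean per group, 6 residual degrees of freedom), with Benjamini-Hochberg adjustment and a threshold of 0.05. Summed CPM use the same scaling. The fits were also run on simulated data, with changes planted only in regions or genes above a count floor. The outcome of that run is not reported here, and it does not cover regions of few counts. Libraries of a group were treated as replicates. Alternatives were DESeq2 1.42.0 (size factors, Wald test), library totals, cyclic loess with limma 3.58.1, other filters, a replicate block, other gene windows and leaving out libraries. Named were all called member regions (at most 12 in each direction in full), members called on summed counts, the start regions of 8 T cell members, the 3 smallest p where nothing passed, and Fntb. Sequences are RefSeq promoter windows. Libraries held 5058328 to 15328775 counts, which sets the precision of regions with few counts. Some items of the lists are not reported here.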

Additional observations from a re-analysis of the deposited data

How the results depend on the processing

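With the replicate number as a block, the count of called member regions was 19 in the FntbKO subset comparison (9 without it), 34 in the WT subset comparison (22) and 5 for FntbKO over WT in cTreg cells (3), and the count of members on summed counts was 5 in the FntbKO subset comparison (2), 6 for FntbKO over WT in cTreg (2) and 4 in eTreg cells (1). The block changed the call of none of the 47 single regions and genes tested under the settings. The labels do not say that a number marks a shared animal, and the deviations of same-numbered WT eTreg and WT cTreg libraries correlated at 0.165, 0.083 and 0.032. Same-numbered pairs correlated at 0.18 between FntbKO eTreg and FntbKO cTreg, at 0.115 and 0.141 between FntbKO cTreg and WT cTreg, and at 0.042 and -0.016 between FntbKO eTreg and WT eTreg libraries. As not every pair passed 0.1, the numbers were not taken to pair the samples, but these correlations cannot decide it. Deviations of 2 libraries from their mean mirror each other, and those of 3 cancel out, so the pairs are not independent. WT eTreg replicate 3 correlated best with WT cTreg replicate 2 (0.044). The other differently numbered pairs of WT eTreg and WT cTreg libraries lay at -0.13 to -0.001. A pairing that the main fit does not use can therefore not be excluded. Without both WT cTreg replicate 2 and FntbKO cTreg replicate 1, 0 regions were called in the FntbKO subset comparison, 28 in the WT subset comparison, 1 for FntbKO over WT in cTreg and 5 in eTreg cells, and 8 members in the WT subset comparison, 1 for FntbKO over WT in cTreg and 3 in eTreg cells passed on summed counts. The DESeq2 Wald test called 0 members on summed counts for FntbKO over WT in eTreg cells, where it gave Ptprm no adjusted p. Leaving out each library in turn gave 0 to 15 called regions in the FntbKO subset comparison, 6 to 25 in the WT subset comparison, 1 to 4 for FntbKO over WT in cTreg and 0 to 5 in eTreg cells, and on summed counts 0 to 5 members in the FntbKO subset comparison, 2 to 6 in the WT subset comparison, 1 to 4 for FntbKO over WT in cTreg and 0 to 2 in eTreg cells. Where this left 1 library in an FntbKO group, its spread was taken from the other groups. The causes of these changes were not tested. Under these settings no named result changed direction, and the interaction had no call under any of them. Of the 47 named results, 6 lost their call with cyclic loess and limma, 2 of the 45 to which it gave an adjusted p with the DESeq2 Wald test, 2 with library totals, 1 with DESeq2 size factors, 1 with no filter on low counts and 18 without both libraries. Depth limits regions of few counts most, such as those of Ptprn2, Ptpn21 and Ptprb.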
